A study of Homo sapiens with 8 samples.

Results

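The genes described here are those that build sterols and fatty acids in the cell, together with the proteins that switch this programme on and off. They form a list of 34 symbols, each matched to 1 of the 60617 Ensembl gene identifiers of the count table, and all 34 passed the filter on low counts. Of these, 22 belong to the sterol arm (the enzymes that make cholesterol from acetyl-CoA and 4 genes of sterol transport or receptor turnover), 7 belong to the fatty acid arm and 5 are regulators. Expression was measured by RNA-seq of poly(A) RNA in HEK293T, a human embryonic kidney epithelial line, in 4 groups of 2 libraries each. The groups were WT, the parental genotype, and the genotypes labelled sgKDM5C, sgKDM6A and sgKMT2B, each named for a guide RNA against 1 chromatin enzyme. KDM5C and KDM6A are lysine demethylases of histone H3 and KMT2B is a lysine methyltransferase of histone H3. All groups were grown in the same serum-containing medium, no treatment is named, and the labels give neither the guide positions nor whether a genotype is a clone or a pool. They also do not say that the libraries of a group came from separate cultures, so p-values measure only the spread between these libraries, which may be technical.

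Cells sense cholesterol at the endoplasmic reticulum. The transcription factors SREBF1 and SREBF2 are made there as membrane precursors and are carried by the escort protein SCAP to the Golgi, where proteases release the active part, while INSIG1 and INSIG2 hold SCAP back when sterols are plentiful. SREBF2 is best known for driving the sterol enzymes, and SREBF1 for driving the fatty acid enzymes. INSIG1 is itself a target of these factors. Cultured lines that are fed serum can take up lipoprotein cholesterol as well as make their own.

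The libraries held 15868353 to 27591724 counts, and the shallowest was WT replicate 2. A member's lowest count in any library was 56. KDM6A stood at 57.7 ± 4.93 CPM (reads scaled to library size with TMM factors, mean ± SD, n = 2) in WT and at 10.9 ± 0.845 CPM in sgKDM6A. KMT2B stood at 141 ± 6.25 CPM in WT and at 69.3 ± 8.86 CPM in sgKMT2B, and KDM5C at 456 ± 21.6 CPM in WT and at 321 ± 13.4 CPM in sgKDM5C, so that the KDM5C transcript was lower by 0.50 on the log2 scale only (SE 0.08, adjusted p = 0.00109 in edgeR's quasi-likelihood test with Benjamini-Hochberg adjustment). KDM5C was also called lower in sgKDM6A, at 383 ± 5.54 CPM (log2 change -0.25, adjusted p = 0.0359), and stood at 393 ± 3.7 CPM in sgKMT2B (-0.21, adjusted p = 0.0667). Of 11 markers of the kidney line, 9 or 10 stood at a mean of at least 1 CPM in every group, with LHX1 near 0, but single markers differed between the groups. The keratin KRT8 had a mean of 60.6 CPM in WT, and its means were 51.2 (sgKDM5C), 5.38 (sgKDM6A) and 256 CPM (sgKMT2B). EPCAM had means of 2.75 CPM in WT and 1.33, 0.595 and 1.29 CPM in the same knockouts, and the part of these differences in the results was not tested. Hepatocyte, adipocyte and macrophage markers summed to at most 2.38, 2.01 and 0.277 CPM in any library, with FGB and ADIPOQ at 0 counts throughout. The 5 fibroblast markers summed to 54.2 to 55.6 CPM in WT, 31.1 to 33.6 in sgKDM5C, 22.5 to 24.5 in sgKDM6A and 80.9 to 94.0 in sgKMT2B, nearly all of it from the collagen genes COL1A1 and COL3A1, and the part of this difference in the results on lipid genes was not tested. In bulk RNA, fewer cells that hold a transcript and less of it per cell cannot be told apart.

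In WT the fatty acid arm held both the highest and the lowest member. Per kilobase of exon, ACLY, which makes cytosolic acetyl-CoA from citrate, stood at 168 CPM per kb, and FASN, the synthase that builds palmitate, at 113 CPM per kb. These levels lay at the 98.8 and 98 percentiles of the 17527 genes tested. The sterol enzymes FDFT1 (49.7), DHCR7 (43.2), SQLE (36.4) and MSMO1 (30.6 CPM per kb) and the regulators SREBF2 (46.1), SCAP (41.1) and INSIG1 (39.4 CPM per kb) came next, and several of these neighbours in the order lie within each other's spread. INSIG2 (2.76 CPM per kb) was far below INSIG1, and SREBF1 (6.54 CPM per kb) was below SREBF2. At the foot stood LPIN1 (1.99) and ACACA (0.57 CPM per kb), the latter at the 22.4 percentile. ACACA is the carboxylase that makes malonyl-CoA, and its lowest library held the 56 counts given above.

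**Figure D1:**
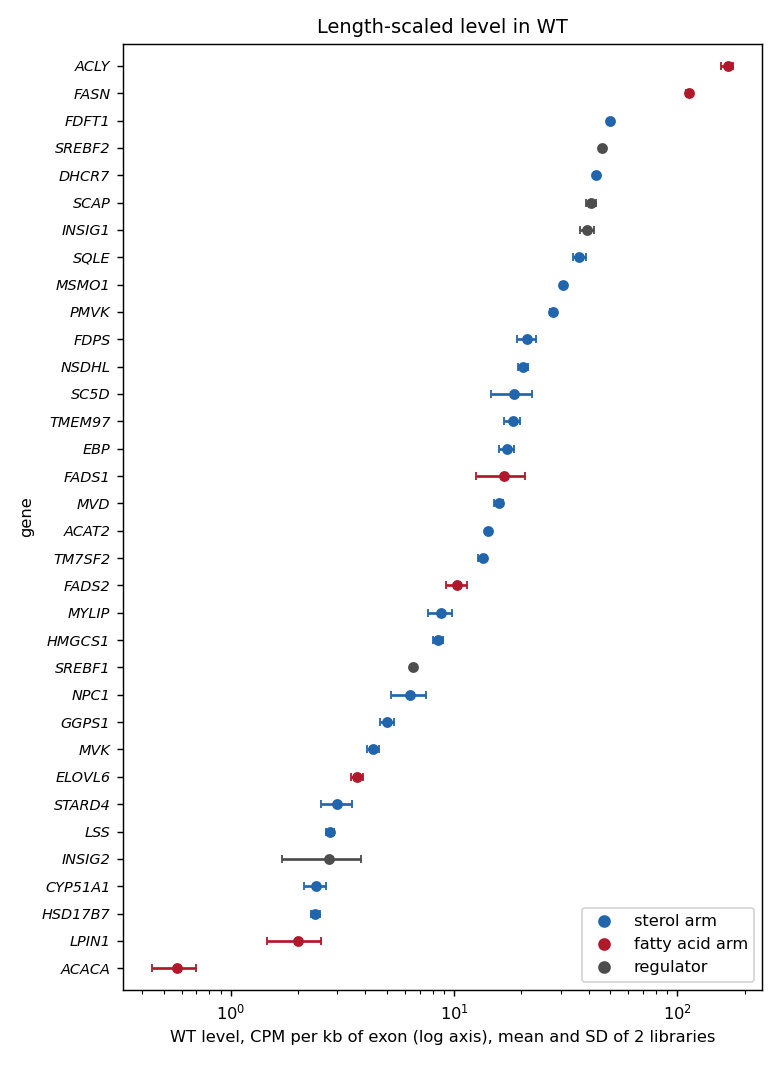
WT level of each of the 34 genes in CPM per kilobase of exon (log axis), as mean and SD of 2 libraries, coloured by arm. ACLY (168) and FASN (113) stand highest and ACACA (0.57) lowest, with most sterol enzymes between.

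Against WT, more members were called lower (adjusted p under 0.05) than higher in each of the knockouts, most of all in sgKDM5C. In sgKDM5C, 14 of 34 members (41.2%) were lower and 4 (11.8%) higher, beside 11.5% lower and 11.1% higher among all genes tested (22.6% called in either direction). In sgKDM6A, 10 members (29.4%) were lower and 5 (14.7%) higher, beside 14.6% and 12.6% of all genes (27.2% in all). In sgKMT2B, 11 members (32.4%) were lower and 4 (11.8%) higher, beside 14.5% and 13.7% of all genes (28.1% in all). All genes tested include genes at low counts, whereas the lowest count of a member was 56. Among the 14083 genes with a mean CPM of at least 1, more were called in either direction. Those shares were 27.4% in sgKDM5C, 32.9% in sgKDM6A and 34.2% in sgKMT2B. The shares of all genes given here and below may therefore understate the background for members and further lists. The comparisons share the WT libraries and are therefore not independent of each other. By arm, which no test compared, the sterol arm had 8 lower and 2 higher of 22 in sgKDM5C (median log2 change -0.20), 4 lower and 3 higher in sgKDM6A (median 0.09) and 7 lower and 3 higher in sgKMT2B (median -0.15). The fatty acid arm had 3 lower and 1 higher of 7 in sgKDM5C (median -0.12), 3 lower and 2 higher in sgKDM6A (median -0.67) and 1 lower in sgKMT2B (median -0.09). Among the 5 regulators, 3 were lower in each knockout, and 1 was higher in sgKDM5C and 1 in sgKMT2B. Their medians were -0.39 in sgKDM5C, -0.33 in sgKDM6A and -0.29 in sgKMT2B. Without the genes of transport and receptor turnover, the 18 sterol synthesis enzymes had 6 lower and 2 higher in sgKDM5C (median -0.19). They had 3 lower and 3 higher in sgKDM6A (median 0.18) and 6 lower and 3 higher in sgKMT2B (median -0.15). The median over all 34 members was -0.20 in sgKDM5C, 0.01 in sgKDM6A and -0.15 in sgKMT2B. The median over all genes tested was 0.02 in sgKDM5C, 0.01 in sgKDM6A and 0.00 in sgKMT2B. Both libraries of sgKDM5C lay below both WT libraries for 29.3% of all genes tested and above them for 31.5%, which is the background for each statement below that this knockout and WT did not overlap. For sgKDM6A these shares were 31.7% and 31.7%, and for sgKMT2B 32.2% and 32.1%. For statements below that span several knockouts at once, the share of all genes was not counted. Leaving out 1 library cut several of these counts by more than 1.5 times. Without sgKDM5C replicate 1, the regulators called in sgKDM5C fell from 4 to 2, and without sgKDM5C replicate 2 the fatty acid members fell from 4 to 2. Without sgKDM6A replicate 1, the sterol members called in sgKDM6A fell from 7 to 3, the fatty acid members from 5 to 3 and the regulators from 3 to 1. The regulators called also fell to 1 without sgKDM6A replicate 2, and the fatty acid members to 3 without WT replicate 2. Without sgKMT2B replicate 1, the sterol members called in sgKMT2B fell from 10 to 3 and the regulators from 4 to 2, while the fatty acid members numbered 3 without WT replicate 1 and 2 without WT replicate 2 or sgKMT2B replicate 2. These counts also fell over all genes, for example from 3969 to 1841 in sgKDM5C without its replicate 1, from 4759 to 2495 in sgKDM6A without its replicate 1 and from 4931 to 2372 in sgKMT2B without its replicate 1.

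**Figure D2:**
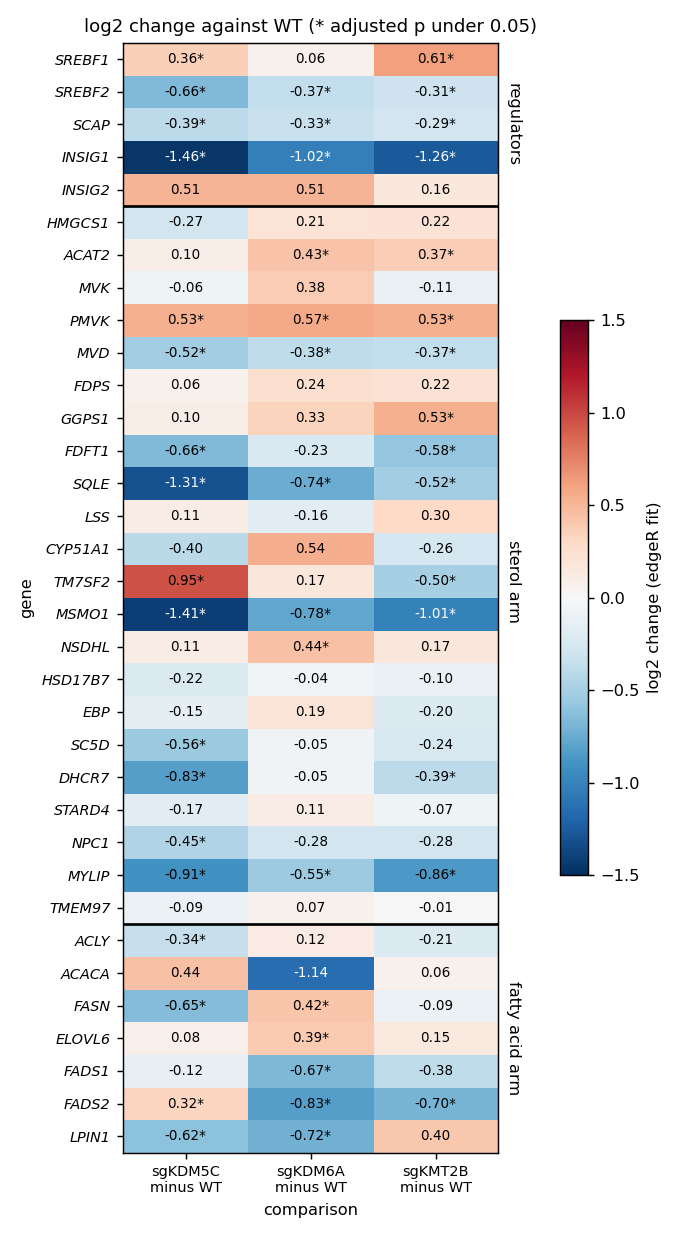
Fitted log2 change against WT for the 34 genes (rows, grouped as regulators, sterol arm and fatty acid arm) in each of the 3 knockouts (columns), blue lower and red higher, with an asterisk where the adjusted p is under 0.05. INSIG1, SQLE and MSMO1 are the deepest blue in sgKDM5C (-1.46, -1.31 and -1.41), PMVK is red in each column, and FASN changes colour between sgKDM5C (-0.65) and sgKDM6A (0.42).

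Among the regulators, INSIG1 had the largest difference from WT in each knockout. It stood at 137 and 151 CPM in the WT libraries, 45.7 and 59.1 CPM in sgKDM5C, 58.4 and 83.3 CPM in sgKDM6A, and 52.7 and 67.0 CPM in sgKMT2B. Every knockout library was below both WT libraries. The fitted log2 change was -1.46 in sgKDM5C (SE 0.17, adjusted p = 0.000142), -1.02 in sgKDM6A (SE 0.17, adjusted p = 0.000795) and -1.26 in sgKMT2B (SE 0.17, adjusted p = 0.000152), by edgeR's quasi-likelihood test with Benjamini-Hochberg adjustment as in all that follows. These correspond to levels 2.75, 2.03 and 2.40 times lower. INSIG2, its paralogue with the same retention role, stood at 13.9 and 7.93 CPM in WT, 15.5 and 16 CPM in sgKDM5C, 15.0 and 16.6 CPM in sgKDM6A, and 10.9 and 13.8 CPM in sgKMT2B. It was not called in any knockout (adjusted p = 0.112, 0.0984 and 0.628). The WT pair was wide, and without WT replicate 1 INSIG2 was called higher in sgKDM5C (log2 change 0.99, adjusted p = 0.00689), sgKDM6A (1.00, adjusted p = 0.00508, and 0.0401 without the filter on low counts) and sgKMT2B (adjusted p = 0.0433). Over all alternatives the adjusted p of INSIG2 ran from 0.00689 to 0.61 in sgKDM5C, from 0.00508 to 0.545 in sgKDM6A and from 0.0433 to 0.983 in sgKMT2B.

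SREBF2, the sterol-arm factor, stood at 349 and 347 CPM in WT, 205 and 237 CPM in sgKDM5C, 273 and 265 CPM in sgKDM6A, and 267 and 295 CPM in sgKMT2B. All 6 knockout libraries were below WT, and the sgKDM5C pair was below every other library. The log2 change was -0.66 in sgKDM5C (SE 0.09, adjusted p = 0.000485), -0.37 in sgKDM6A (SE 0.09, adjusted p = 0.0105) and -0.31 in sgKMT2B (SE 0.09, adjusted p = 0.0249). The sgKDM6A call was lost without either sgKDM6A library (adjusted p = 0.0556 without replicate 1 and 0.0725 without replicate 2, range over the alternatives 0.00288 to 0.0725). That in sgKMT2B was lost without WT replicate 2 (0.0503) or sgKMT2B replicate 1 (0.234, range 0.0142 to 0.234). SREBF1, the factor of the fatty acid arm, went the other way. It stood at 52.3 and 52.8 CPM in WT, 67.3 and 67.4 CPM in sgKDM5C, 58.8 and 50.8 CPM in sgKDM6A, and 80.6 and 79.8 CPM in sgKMT2B. Both libraries of sgKDM5C and of sgKMT2B were above WT, while those of sgKDM6A lay on either side of it. SREBF1 rose by 0.61 on the log2 scale in sgKMT2B (SE 0.11, adjusted p = 0.000924) and by 0.36 in sgKDM5C (SE 0.11, adjusted p = 0.0269), and its 0.06 in sgKDM6A was not called (adjusted p = 0.701). The call in sgKDM5C was lost when any 1 of the 4 libraries compared was left out, with adjusted p = 0.0601 and 0.0689 without WT replicates 1 and 2 and 0.12 and 0.111 without sgKDM5C replicates 1 and 2, and also in a fit of those 2 groups alone (0.0649, range over the alternatives 0.0163 to 0.12).

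SCAP, the escort that carries both factors, stood at 275 and 254 CPM in WT, 195 and 209 CPM in sgKDM5C, 214 and 206 CPM in sgKDM6A, and 197 and 236 CPM in sgKMT2B. Every knockout library was below the lower WT library. The log2 change was -0.39 in sgKDM5C (SE 0.10, adjusted p = 0.0137), -0.33 in sgKDM6A (SE 0.10, adjusted p = 0.0245) and -0.29 in sgKMT2B (SE 0.10, adjusted p = 0.0441). In sgKDM5C leaving out its replicate 1 ended the call (adjusted p = 0.113, range 0.00202 to 0.113). In sgKDM6A it was lost without WT replicate 1 (0.0883) and without sgKDM6A replicate 1 (0.093) or replicate 2 (0.131, range 0.0117 to 0.131). In sgKMT2B it was lost without WT replicate 1 (0.15), without sgKMT2B replicate 1 (0.416) and in a fit of the 2 groups alone (0.0782, range 0.0284 to 0.416). The 20 expressed genes nearest to SCAP had a median of -0.25 in sgKMT2B, beside -0.17 in sgKDM5C and 0.08 in sgKDM6A. Their part in the SCAP calls was not tested.

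**Figure D3:**
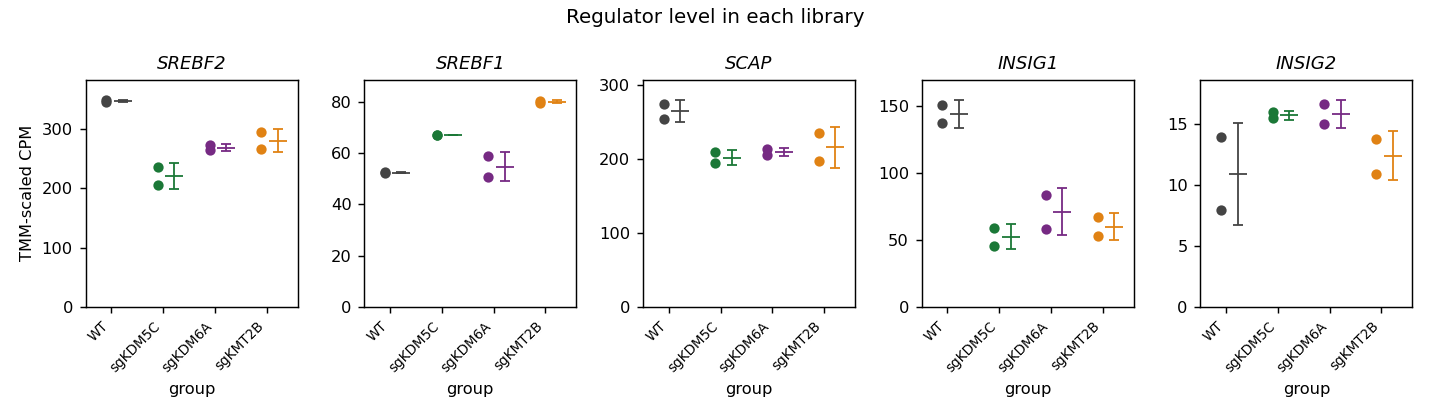
TMM-scaled CPM of the 5 regulators in each library (points) with the group mean and SD of 2 libraries (bars), on axes that start at 0. INSIG1, SREBF2 and SCAP have every knockout library below both WT libraries, SREBF1 is highest in sgKMT2B (80.6 and 79.8), and the INSIG2 pair of WT is split (13.9 and 7.93).

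The promoters of SREBF2 and INSIG1 are shown because these transcripts were lower in the knockouts and because SREBF factors are known to act at sterol regulatory elements beside CCAAT boxes. They were read from RefSeq windows of 300 bases (250 before and 50 after each annotated start, GRCh38.p14), which matched 30 of the 34 members. The windows of ACAT2, FASN, SQLE and FDFT1 are not shown. The letters searched, on both strands, were TCACNCCAC for the sterol regulatory element, its shorter core CACNCCAC, which every match of the longer form also holds and which was added after the longer form had matched 1 member, and CCAAT. Capitals mark matches to CACNCCAC or CCAAT on either strand, and both stretches are on the plus strand, chr22:41832929-41833078 for SREBF2 and chr7:155297628-155297775 for INSIG1.

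SREBF2: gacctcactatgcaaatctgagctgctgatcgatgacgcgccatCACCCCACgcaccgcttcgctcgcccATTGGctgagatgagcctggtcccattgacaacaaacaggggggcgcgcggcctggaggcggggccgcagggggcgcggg

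INSIG1: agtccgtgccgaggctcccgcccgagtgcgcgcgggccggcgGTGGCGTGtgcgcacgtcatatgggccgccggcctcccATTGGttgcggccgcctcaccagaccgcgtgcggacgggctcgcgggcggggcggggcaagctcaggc

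TCACNCCAC occurred in the window of SREBF2 alone among the 30 member genes and in 1.13% of all 35116 promoter windows. The core CACNCCAC occurred in 4 of 30 member genes (SREBF2, INSIG1, SC5D and ACACA) and in 5.87% of all windows, or 7.05% of 27305 genes. CCAAT occurred in 21 of 30 member genes and in 39.7% of all genes (34.6% of windows), and by arm it was found in 16 of 19 sterol members, 3 of 6 fatty acid members and 2 of 5 regulators. SCAP, SREBF1 and INSIG2 had no CCAAT in their windows. The window of SCAP, which was also called lower in each knockout, held no CACNCCAC either and is not printed. The GC box letters GGGCGG occurred in 29 of 30 member genes and in 48.3% of all genes. A match describes these letters only.

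In the sterol arm, MVD, SQLE, MSMO1 and MYLIP were called lower and PMVK higher in each comparison with WT, and 9 of 22 members, HMGCS1, LSS and CYP51A1 among them, were called in none. The shares of all genes called alike in each comparison, or called in none, were not counted. Because the comparisons share the WT libraries, repeated calls are not independent. Of the 5 mevalonate-pathway genes, 1 was lower and 1 higher in sgKDM5C (beside 11.5% lower and 11.1% higher of all genes), 1 was lower and 2 were higher in sgKDM6A (14.6% and 12.6% of all genes), and 1 was lower and 2 were higher in sgKMT2B (14.5% and 13.7% of all genes). HMGCS1, which joins acetyl units into HMG-CoA and is a classical SREBF2 target, stood at 41.1 and 38.5 CPM in WT, 32.3 and 34 CPM in sgKDM5C, 40.0 and 52.2 CPM in sgKDM6A, and 48.1 and 44.7 CPM in sgKMT2B. It was not called in any knockout against WT (log2 change -0.27, 0.21 and 0.22, adjusted p = 0.177, 0.262 and 0.248). ACAT2, the thiolase that makes acetoacetyl-CoA, stood at 61.4 and 60.4 CPM in WT, 70.8 and 59.4 CPM in sgKDM5C, 83.6 and 80.1 CPM in sgKDM6A, and 79.1 and 78.7 CPM in sgKMT2B. In edgeR's quasi-likelihood test it rose by 0.43 in sgKDM6A (adjusted p = 0.0106), a call lost without sgKDM6A replicate 1 (0.0799, range 0.00314 to 0.0799). It rose by 0.37 in sgKMT2B (adjusted p = 0.0199), a call lost without WT replicate 2 (0.0582), sgKMT2B replicate 1 (0.107) or sgKMT2B replicate 2 (0.086, range 0.0105 to 0.107). ACAT2 has 4299 exon bases, and its overlaps with genes on the opposite strand, SOD2 among them, sum to 2996 bases. A base under several genes counts more than once in this sum. The counting's strand setting is unknown here, so the level of ACAT2 is uncertain.

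PMVK, the phosphomevalonate kinase, stood at 35.9 and 34.6 CPM in WT, 56.6 and 45.3 CPM in sgKDM5C, 56.9 and 47.7 CPM in sgKDM6A, and 58.0 and 44.3 CPM in sgKMT2B. It was higher than WT in all 6 knockout libraries, and replicate 1 was the higher library in each knockout. The log2 change was 0.53 in sgKDM5C (adjusted p = 0.0244), 0.57 in sgKDM6A (adjusted p = 0.0149) and 0.53 in sgKMT2B (adjusted p = 0.0192). In sgKDM5C the call did not survive leaving out sgKDM5C replicate 1 (adjusted p = 0.22), WT replicate 1 (0.0583) or WT replicate 2 (0.0981, range 0.00138 to 0.22). In sgKDM6A it was lost without its replicate 1 (0.133) or WT replicate 2 (0.0631, range 0.000305 to 0.133), and in sgKMT2B without its replicate 1 (0.234) or WT replicate 2 (0.0745, range 0.000652 to 0.234). MVD, the next enzyme, which decarboxylates mevalonate diphosphate to the isoprene unit, was lower instead. Its libraries gave 76.8 and 72.0 CPM in WT, 51.7 and 52.0 CPM in sgKDM5C, 54.1 and 60.0 CPM in sgKDM6A, and 54.0 and 61.3 CPM in sgKMT2B. MVD changed by -0.52 in sgKDM5C (adjusted p = 0.00497), -0.38 in sgKDM6A (adjusted p = 0.0201) and -0.37 in sgKMT2B (adjusted p = 0.023). The sgKDM6A call was lost without WT replicate 1 (0.0693) or sgKDM6A replicate 1 (0.178, range 0.0107 to 0.178), and the sgKMT2B call without WT replicate 1 (0.0813) or sgKMT2B replicate 1 (0.235, range 0.0133 to 0.235). Of the pair of prenyl synthases, FDPS was not called, and GGPS1, which makes geranylgeranyl diphosphate, stood at 20.1 and 18.1 CPM in WT, 21.6 and 19.5 CPM in sgKDM5C, 25.1 and 23.0 CPM in sgKDM6A, and 27.0 and 28.3 CPM in sgKMT2B. It rose by 0.53 in sgKMT2B (adjusted p = 0.0104), a call that was lost without WT replicate 2 (0.0577) or without sgKMT2B replicate 1 (0.05) or replicate 2 (0.0693, range 0.00385 to 0.0693). GGPS1 has 3809 exon bases. Its overlaps with TBCE on the same strand and ARID4B on the opposite strand sum to 1560 bases, counted per gene, so its level is uncertain too. In sgKMT2B the 20 expressed genes nearest to each of GGPS1, PMVK and ACAT2 also had positive medians, with log2 changes of 0.24, 0.30 and 0.27, and their part in these calls was not tested. The neighbours of PMVK had medians of -0.01 in sgKDM5C and -0.04 in sgKDM6A, and those of ACAT2 a median of 0.04 in sgKDM6A.

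Of the 3 genes that make squalene and turn it into lanosterol, 2 were lower in sgKDM5C, 1 in sgKDM6A and 2 in sgKMT2B. Beside these stood 11.5%, 14.6% and 14.5% of all genes. SQLE, the squalene epoxidase and a rate-controlling step of the pathway, stood at 149 and 164 CPM in WT, 59.9 and 66.3 CPM in sgKDM5C, 90.5 and 97.5 CPM in sgKDM6A, and 102 and 116 CPM in sgKMT2B. No knockout library reached WT, and the sgKDM5C pair was below all others. SQLE fell by 1.31 on the log2 scale in sgKDM5C (SE 0.11, adjusted p = 1.33e-05, 2.48 times lower), by 0.74 in sgKDM6A (SE 0.11, adjusted p = 0.00027) and by 0.52 in sgKMT2B (SE 0.10, adjusted p = 0.0026). The last call was lost without sgKMT2B replicate 1 (adjusted p = 0.0565, range 0.000115 to 0.0565). FDFT1, the squalene synthase that commits farnesyl units to sterols, stood at 258 and 259 CPM in WT, 159 and 168 CPM in sgKDM5C, 208 and 234 CPM in sgKDM6A, and 162 and 184 CPM in sgKMT2B. It fell by 0.66 in sgKDM5C (SE 0.10, adjusted p = 0.000538) and by 0.58 in sgKMT2B (SE 0.10, adjusted p = 0.000657). In sgKDM6A both FDFT1 libraries were also below WT, but the change of -0.23 was not called (adjusted p = 0.0928, range 0.0435 to 0.48). LSS, which closes the ring to lanosterol, was not called in any knockout (0.11, -0.16 and 0.30).

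Of the 8 genes that act after lanosterol, 3 were lower and 1 higher in sgKDM5C, 1 was lower and 1 higher in sgKDM6A, and 3 were lower in sgKMT2B. As shares these were 37.5% lower and 12.5% higher, 12.5% lower and 12.5% higher, and 37.5% lower, beside 11.5% and 11.1%, 14.6% and 12.6%, and 14.5% lower of all genes, so that the sgKDM6A counts were near the background. MSMO1, the methylsterol oxidase, stood at 89.5 and 87.4 CPM in WT, 33.0 and 33.8 CPM in sgKDM5C, 44.5 and 58.3 CPM in sgKDM6A, and 40.5 and 47.6 CPM in sgKMT2B. It was below WT in every knockout library. MSMO1 fell by 1.41 on the log2 scale in sgKDM5C (SE 0.14, adjusted p = 3.98e-05, 2.65 times lower), by 0.78 in sgKDM6A (SE 0.13, adjusted p = 0.000935) and by 1.01 in sgKMT2B (SE 0.13, adjusted p = 0.000137), and these calls held in all 13 alternatives of each comparison. DHCR7, the reductase that yields cholesterol at the end of the pathway, stood at 177 and 182 CPM in WT, 101 and 101 CPM in sgKDM5C, 169 and 179 CPM in sgKDM6A, and 134 and 140 CPM in sgKMT2B. The sgKDM6A pair overlapped WT, and the other knockouts did not. DHCR7 fell by 0.83 in sgKDM5C (SE 0.09, adjusted p = 8.42e-05) and by 0.39 in sgKMT2B (SE 0.09, adjusted p = 0.00482), and its change in sgKDM6A was -0.05 (adjusted p = 0.731). The call in sgKMT2B was lost without sgKMT2B replicate 1 (adjusted p = 0.0725, range 0.000693 to 0.0725).

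TM7SF2, a sterol reductase that follows the demethylation of lanosterol, went in opposite directions. It stood at 44.3 and 46.9 CPM in WT, 100 and 76.4 CPM in sgKDM5C, 55.7 and 47.2 CPM in sgKDM6A, and 30.8 and 33.5 CPM in sgKMT2B. It rose by 0.95 in sgKDM5C (SE 0.14, adjusted p = 0.000528) and fell by 0.50 in sgKMT2B (SE 0.14, adjusted p = 0.0168), and its 0.17 in sgKDM6A was not called (adjusted p = 0.377). Leaving out WT replicate 2 (adjusted p = 0.0653), sgKMT2B replicate 1 (0.134) or sgKMT2B replicate 2 (0.05, range 0.00222 to 0.134) ended the sgKMT2B call. NSDHL, which acts with MSMO1 in removing methyl groups, stood at 42.2 and 39.4 CPM in WT, 46.3 and 42.0 CPM in sgKDM5C, 55.6 and 55.1 CPM in sgKDM6A, and 46.7 and 44.9 CPM in sgKMT2B. It rose in sgKDM6A (log2 change 0.44, adjusted p = 0.01, range 0.00303 to 0.0638, lost without sgKDM6A replicate 1). SC5D, the sterol desaturase before DHCR7, was at 103 ± 21.3 CPM in WT and 70.0 ± 8.19 CPM in sgKDM5C, a fall of 1.47 times (log2 change -0.56, adjusted p = 0.0105). That call was lost without WT replicate 1 (0.0829) or sgKDM5C replicate 1 (0.103, range 4.35e-05 to 0.103). CYP51A1, HSD17B7 and EBP were not called. CYP51A1, the lanosterol demethylase, has 3584 exon bases, and its overlaps with other annotated genes sum to 3081 bases. A base under several genes counts more than once in that sum. Its changes of -0.40, 0.54 and -0.26 are therefore uncertain. HSD17B7, a sterol reductase, is known to have pseudogene copies, which makes its level uncertain too.

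Of the 4 genes of transport and receptor turnover, MYLIP differed most. MYLIP is a ubiquitin ligase that marks lipoprotein receptors for degradation and is known as a target of the sterol-activated LXR receptors, not of the SREBF factors. It stood at 24.1 and 28.6 CPM in WT, 13.9 and 14.1 CPM in sgKDM5C, 16.8 and 19.2 CPM in sgKDM6A, and 14.1 and 14.8 CPM in sgKMT2B. All knockout libraries were below WT. MYLIP changed by -0.91 in sgKDM5C (SE 0.15, adjusted p = 0.00104), -0.55 in sgKDM6A (SE 0.15, adjusted p = 0.014) and -0.86 in sgKMT2B (SE 0.15, adjusted p = 0.000841). Leaving out WT replicate 2 (adjusted p = 0.0978) or sgKDM6A replicate 1 (0.128, range 0.00702 to 0.128) ended the sgKDM6A call. NPC1, which exports cholesterol from lysosomes, was at 63.9 ± 11.6 CPM in WT and 46.7 ± 4.72 CPM in sgKDM5C (log2 change -0.45, adjusted p = 0.0258). It lost that call without WT replicate 2 (0.18) or sgKDM5C replicate 1 (0.192, range 0.0044 to 0.192). NPC1 was not called in sgKDM6A or sgKMT2B (-0.28 in both), although without WT replicate 1 it was (adjusted p = 0.0189 and 0.0193, ranges 0.0189 to 0.693 and 0.0193 to 0.698). STARD4, a sterol carrier, and TMEM97, a membrane partner of NPC1, had changes of at most 0.17 in size and were not called.

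**Figure D4:**
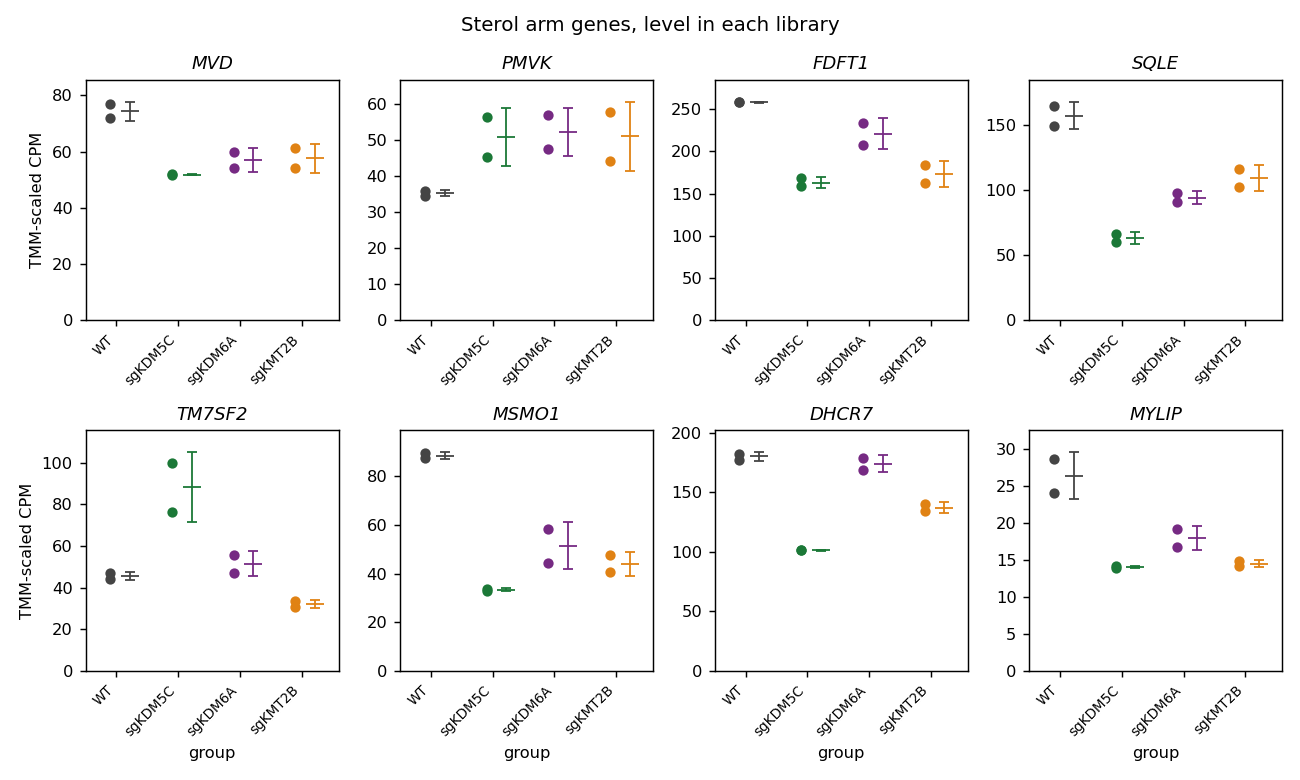
TMM-scaled CPM of 8 sterol arm genes in each library (points) with the group mean and SD of 2 libraries (bars), on axes that start at 0. MVD, SQLE, MSMO1 and MYLIP have every knockout library below WT, PMVK has every one above, and TM7SF2 is above WT in sgKDM5C (100 and 76.4) and below it in sgKMT2B (30.8 and 33.5).

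Promoter stretches of MSMO1, MVD and MYLIP are shown because these are the sterol arm members with a RefSeq window that were called lower in each knockout. They lie at chr4:165327473-165327622 (plus strand), chr16:88663162-88663311 (minus strand) and chr6:16128936-16129085 (plus strand) of GRCh38.p14, and capitals mark CCAAT on either strand. The core CACNCCAC was not found in these 3 windows, and CCAAT was found 4 times in that of MSMO1, 3 times in that of MVD and 2 times in that of MYLIP.

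MSMO1: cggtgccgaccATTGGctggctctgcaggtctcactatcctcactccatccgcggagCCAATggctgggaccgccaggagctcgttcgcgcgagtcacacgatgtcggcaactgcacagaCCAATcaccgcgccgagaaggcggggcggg

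MVD: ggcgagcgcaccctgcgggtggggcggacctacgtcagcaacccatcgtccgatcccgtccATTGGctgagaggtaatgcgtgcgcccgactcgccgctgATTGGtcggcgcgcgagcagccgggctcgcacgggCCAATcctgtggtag

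MYLIP: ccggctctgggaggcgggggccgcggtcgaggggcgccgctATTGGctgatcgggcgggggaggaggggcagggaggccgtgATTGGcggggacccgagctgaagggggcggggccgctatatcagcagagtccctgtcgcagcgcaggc

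PMVK, the sterol member called higher in each knockout, had no CCAAT in its window, nor had CYP51A1 and NPC1.

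In the fatty acid arm, 2 of 7 members, FASN and FADS2, were called lower in 1 knockout and higher in another. The share of all genes with such opposite calls was not counted. FASN stood at 1080 and 1030 CPM in WT, 646 and 706 CPM in sgKDM5C, 1390 and 1440 CPM in sgKDM6A, and 942 and 1040 CPM in sgKMT2B. The sgKDM5C pair was below WT, the sgKDM6A pair above it, and the sgKMT2B pair overlapped it. FASN fell by 0.65 on the log2 scale in sgKDM5C (SE 0.08, adjusted p = 0.000242), rose by 0.42 in sgKDM6A (SE 0.08, adjusted p = 0.00263) and had a change of -0.09 in sgKMT2B that was not called (adjusted p = 0.446). Both calls held in all 13 alternatives. ACLY stood at 838 and 914 CPM in WT, 700 and 683 CPM in sgKDM5C, 924 and 981 CPM in sgKDM6A, and 761 and 758 CPM in sgKMT2B. It fell by 0.34 in sgKDM5C (SE 0.08, adjusted p = 0.00832). Its changes of 0.12 in sgKDM6A (adjusted p = 0.284) and -0.21 in sgKMT2B (adjusted p = 0.0683) were not called, although the latter was with upper-quartile factors (adjusted p = 0.0493) and without WT replicate 1 (0.0231, range 0.0231 to 0.239). ACACA, between these enzymes in the pathway, stood at 6.24 and 8.58 CPM in WT, 12.8 and 7.15 CPM in sgKDM5C, 2.22 and 4.39 CPM in sgKDM6A, and 2.65 and 12.6 CPM in sgKMT2B. The libraries of a group differed up to several-fold and no change was called (0.44, -1.14 and 0.06, adjusted p = 0.575, 0.134 and 0.949). In sgKDM6A it was called in a fit of the 2 groups alone (0.0231) and without the filter on low counts (6.72e-05, range 6.72e-05 to 0.462). In sgKMT2B its sign turned to -1.47 without sgKMT2B replicate 2 (adjusted p = 0.0346, range 0.0346 to 0.979).

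The desaturases of polyunsaturated fatty acids had another order. FADS2, which introduces the first double bond in this route, stood at 106 and 123 CPM in WT, 147 and 138 CPM in sgKDM5C, 66.4 and 61.5 CPM in sgKDM6A, and 69.3 and 71.4 CPM in sgKMT2B. It was above WT in both sgKDM5C libraries and below it in those of the other knockouts. FADS2 fell by 0.83 in sgKDM6A (SE 0.10, adjusted p = 9.66e-05) and by 0.70 in sgKMT2B (SE 0.10, adjusted p = 0.000307), in all alternatives. It rose by 0.32 in sgKDM5C (SE 0.10, adjusted p = 0.0362), a call that was lost without WT replicate 1 (0.16), without sgKDM5C replicate 1 (0.203) or replicate 2 (0.0886), and in a fit of the 2 groups alone (0.0747, range 0.0187 to 0.203). FADS1, its neighbour on chromosome 11, which acts later in the route, stood at 141 and 201 CPM in WT, 151 and 163 CPM in sgKDM5C, 107 and 107 CPM in sgKDM6A, and 123 and 139 CPM in sgKMT2B. FADS1 fell by 0.67 in sgKDM6A (SE 0.14, adjusted p = 0.00302). Its -0.38 in sgKMT2B missed the threshold (adjusted p = 0.051) but passed the threshold without WT replicate 1 (0.00106), with upper-quartile factors (0.0455), without the filter (0.0061) and in DESeq2 (0.0333), over a range of 0.00106 to 0.531. In sgKDM5C FADS1 was not called (-0.12, adjusted p = 0.565) except without WT replicate 1 (0.0282, range 0.0282 to 0.841). FADS1 and FADS2 overlap on opposite strands over 570 exon bases of FADS1 at most, a small part of either.

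LPIN1, a phosphatidate phosphatase that feeds triglyceride synthesis, stood at 19.1 and 28.1 CPM in WT, 16.5 and 14.0 CPM in sgKDM5C, 13.8 and 14.7 CPM in sgKDM6A, and 28.8 and 32.9 CPM in sgKMT2B. The first pair of knockouts lay below WT and sgKMT2B above it. LPIN1 fell by 0.62 in sgKDM5C (adjusted p = 0.0242) and by 0.72 in sgKDM6A (adjusted p = 0.0101), and its 0.40 in sgKMT2B was not called (adjusted p = 0.112). The sgKDM5C call was lost without WT replicate 2 (0.214) or sgKDM5C replicate 2 (0.126, range 0.00291 to 0.214), and that in sgKDM6A without WT replicate 2 (0.114) or sgKDM6A replicate 1 (0.0678, range 0.000346 to 0.114). Without WT replicate 2, LPIN1 was called higher in sgKMT2B (0.0155, range 0.0155 to 0.598). In sgKDM5C the 20 expressed genes nearest to LPIN1 on chromosome 2 had a median log2 change of -0.37 as well, and the part of this region in the LPIN1 difference was not tested. In sgKDM6A that median was 0.09. ELOVL6, which lengthens palmitate, was at 26.7 ± 1.64 CPM in WT and 34.9 ± 0.679 CPM in sgKDM6A (log2 change 0.39, adjusted p = 0.0338). That call was lost when any 1 of the 4 libraries was left out (0.119 and 0.0502 without WT replicates 1 and 2, 0.115 and 0.136 without sgKDM6A replicates 1 and 2), without the filter (0.052) and in a fit of the 2 groups alone (0.0655, range 0.0218 to 0.136).

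**Figure D5:**
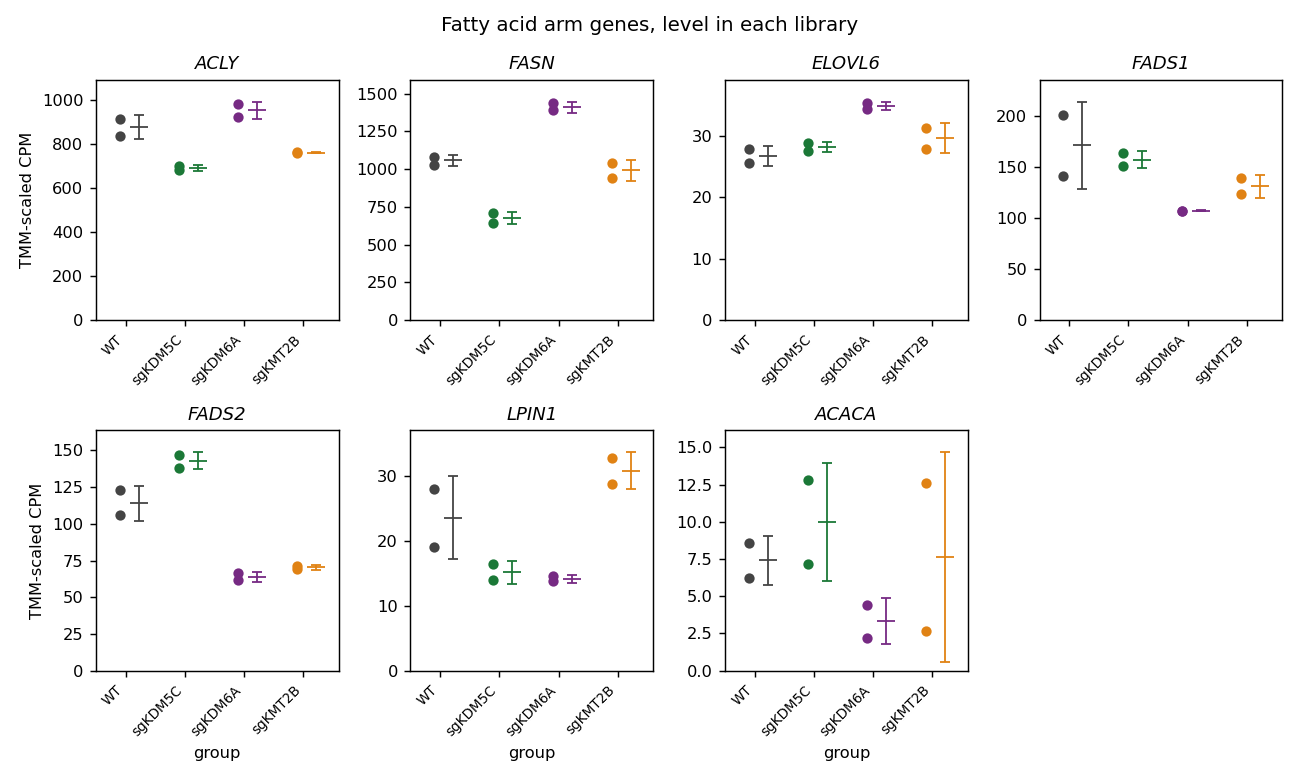
TMM-scaled CPM of the 7 fatty acid arm genes in each library (points) with the group mean and SD of 2 libraries (bars), on axes that start at 0. FASN is lowest in sgKDM5C (646 and 706) and highest in sgKDM6A (1390 and 1440), FADS2 is highest in sgKDM5C (147 and 138), and the ACACA pair of sgKMT2B is split (2.65 and 12.6).

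Summed over the arm, the 22 sterol genes held 1460 and 1450 CPM in the WT libraries, 1110 and 1080 CPM in sgKDM5C, 1320 and 1420 CPM in sgKDM6A, and 1200 and 1250 CPM in sgKMT2B. The 7 fatty acid genes held 2220 and 2330 CPM in WT, 1700 and 1740 CPM in sgKDM5C, 2530 and 2640 CPM in sgKDM6A, and 1950 and 2090 CPM in sgKMT2B, most of it from FASN and ACLY. On this summed level sgKDM5C was lowest in both arms and sgKDM6A lay above WT in the fatty acid arm and below it in the sterol arm. Its sterol libraries, like those of the other knockouts, did not overlap WT.

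Direct comparisons between the knockouts do not use the WT level in their log2 differences. The WT libraries do enter the shared filter, the scaling factors and the spread behind the p-values. Between sgKDM5C and sgKDM6A, 12 of 34 members (35.3%) were lower in sgKDM5C, beside 8.86% of all genes tested. Another 3 (8.82%) were higher, beside 10.9% of all genes, and 19.8% of all genes were called. In the sterol arm 9 were lower, of which DHCR7 (log2 difference -0.78, SE 0.09, adjusted p = 4.3e-05) and SQLE (-0.58, SE 0.11, adjusted p = 0.00188) were called under every alternative. The others were HMGCS1 (-0.48), ACAT2 (-0.33), MVK, the mevalonate kinase (-0.44), FDFT1 (-0.43), CYP51A1 (-0.95), MSMO1 (-0.62) and SC5D (-0.51). TM7SF2 was higher by 0.78 (adjusted p = 0.00132). The sterol members called fell from 10 to 4 without sgKDM6A replicate 2 and to 6 without either sgKDM5C library. In the fatty acid arm the difference for FASN was -1.06 (SE 0.08, adjusted p = 1.75e-06, 2.09 times) and FADS2 was higher by 1.16 (SE 0.10, adjusted p = 5.65e-06, 2.23 times). ACLY was lower by 0.46 (adjusted p = 0.00121) and FADS1 higher by 0.55 (adjusted p = 0.0116). The FADS1 call was lost without sgKDM5C replicate 2 (0.0761) or either sgKDM6A library (0.0602 and 0.0607, range 1.17e-05 to 0.0761). Of the regulators SREBF2 was lower (-0.29, adjusted p = 0.0464), a call lost with upper-quartile factors (0.075), with a filter at a mean CPM of 1 (0.051), and without sgKDM5C replicate 1 (0.321) or sgKDM6A replicate 1 (0.202) or 2 (0.124, range 0.0264 to 0.321).

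Between sgKDM5C and sgKMT2B, 8 members (23.5%) were lower in sgKDM5C, beside 10.5% of all genes. Another 2 (5.88%) were higher, beside 11.6% of all genes, and 22.1% of all genes were called. TM7SF2 showed the largest difference, being higher in sgKDM5C by 1.46 (SE 0.14, adjusted p = 8e-06, 2.74 times), and FADS2 was higher by 1.02 (SE 0.10, adjusted p = 1.26e-05). SQLE was lower by 0.79 (adjusted p = 0.000136), DHCR7 by 0.43 (adjusted p = 0.00306), FASN by 0.55 (adjusted p = 0.000372) and LPIN1 by 1.02 (adjusted p = 0.00112). These 6 calls held in all alternatives. HMGCS1 (-0.48), GGPS1 (-0.43, with a median of -0.32 over its 20 neighbours), MSMO1 (-0.40) and SREBF2 (-0.35) were lower too, and leaving out any 1 of the 4 libraries reduced the sterol members called from 6 to 3. The SREBF2 call ended on leaving out sgKDM5C replicate 1 (adjusted p = 0.171) or sgKMT2B replicate 2 (0.166, range 0.00366 to 0.171).

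Between sgKDM6A and sgKMT2B, 8 members (23.5%) were higher in sgKDM6A, beside 12.4% of all genes. Another 2 (5.88%) were lower, beside 12.5% of all genes, and 24.9% of all genes were called. In the sterol arm 6 were higher, MVK (0.49), FDFT1 (0.35), CYP51A1 (0.81), TM7SF2 (0.68, adjusted p = 0.00277), EBP, the sterol isomerase (0.38), and DHCR7 (0.35). Without sgKDM6A replicate 2, or without either sgKMT2B library, 2 sterol members were called. FASN was higher by 0.51 (SE 0.08, adjusted p = 0.000541) and ACLY by 0.33 (adjusted p = 0.00828), the latter lost without sgKDM6A replicate 2 (0.0877) or sgKMT2B replicate 1 (0.0579) or 2 (0.068, range 0.00223 to 0.0877). LPIN1 was lower in sgKDM6A by 1.12 (adjusted p = 0.000462) and SREBF1 by 0.55 (adjusted p = 0.00165), where the 20 neighbours of SREBF1 had a median of -0.28.

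The further lists below were chosen with earlier results of these data known, so their counts are descriptions. Of 19 genes that process or degrade the SREBF precursors, 8 were lower (42.1%) and 2 higher (10.5%) in sgKDM5C, beside 11.5% and 11.1% of all genes (median log2 change -0.09). In sgKDM6A 4 were lower (21.1%) and 3 higher (15.8%), beside 14.6% and 12.6% of all genes (median -0.14), and in sgKMT2B 5 were lower (26.3%) and 1 higher (5.26%), beside 14.5% and 13.7% (median -0.07). RNF145, a ubiquitin ligase that acts on SCAP and on the sterol machinery, was at 50.6 ± 0.0966 CPM in WT, 89.9 ± 10.4 CPM in sgKDM5C, 88.5 ± 0.098 CPM in sgKDM6A and 78.7 ± 1.12 CPM in sgKMT2B. It rose by 0.83, 0.81 and 0.64 (adjusted p = 0.000221, 0.000148 and 0.000697). SEC24C and SEC24D are cargo adaptors of the COPII coat, which carries SCAP out of the endoplasmic reticulum. SEC24C changed by -0.68 in sgKDM5C (adjusted p = 0.000789) and -0.67 in sgKMT2B (adjusted p = 0.000478), and SEC24D by -0.91 in sgKDM6A (adjusted p = 0.000542) and -0.90 in sgKMT2B (adjusted p = 0.000511). The small GTPase of the same coat, SAR1A, rose by 0.57 in sgKDM6A (adjusted p = 0.000748). AUP1, a partner in sterol-driven protein degradation, changed by -0.65 in sgKDM5C (adjusted p = 0.000881). These named calls held in all alternatives. In sgKDM5C, SEC24D was also called lower (-0.65, adjusted p = 0.00579) and SAR1A higher (0.31, adjusted p = 0.0318).

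Further fatty acid synthesis genes numbered 20, of which 4 were lower in sgKDM5C (20% beside 11.5% of all genes, median 0.01). In sgKDM6A 7 were lower and 1 higher (35% and 5% beside 14.6% and 12.6% of all genes, median -0.09), and in sgKMT2B 5 were lower and 2 higher (25% and 10% beside 14.5% and 13.7%, median -0.15). MID1IP1, which promotes the assembly of acetyl-CoA carboxylase, was at 177 ± 5.57 CPM in WT and at 130 ± 3.74, 108 ± 1.56 and 128 ± 8.85 CPM in sgKDM5C, sgKDM6A and sgKMT2B. It fell by 0.45 (adjusted p = 0.00431), 0.71 (adjusted p = 0.000132) and 0.47 (adjusted p = 0.00207) on the log2 scale. SLC25A1, the citrate carrier that supplies ACLY, fell by 0.58 in sgKDM6A (adjusted p = 0.000471) and by 0.31 in sgKMT2B (adjusted p = 0.0199). ELOVL7, an elongase, fell by 1.04 in sgKMT2B (adjusted p = 0.000311). SCD5, a stearoyl desaturase, fell by 0.64 in sgKMT2B (adjusted p = 0.00139) and by 0.41 in sgKDM6A (adjusted p = 0.0211, range 0.00786 to 0.208, lost without WT replicate 2 or sgKDM6A replicate 1). MECR and ME1 fell by 0.35 and 0.40 in sgKDM5C (adjusted p = 0.0171 and 0.0229). Each lost its call without sgKDM5C replicate 1 or 2 and in a fit of the 2 groups alone, and ME1 also without WT replicate 1, over ranges of 0.00641 to 0.11 and 0.0121 to 0.16.

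Of 20 genes of LXR signalling, sterol efflux and storage, 16 were tested, and 2 were lower in sgKDM5C (12.5%, near the 11.5% of all genes, median -0.03). In sgKDM6A 4 were lower and 1 higher (25% and 6.25% beside 14.6% and 12.6% of all genes, median 0.00), and in sgKMT2B 5 were lower and 2 higher (31.2% and 12.5% beside 14.5% and 13.7%, median -0.15). ABCG1, a sterol exporter and LXR target, was at 22.4 ± 1.64 CPM in WT, 5.10 ± 2.23 CPM in sgKDM6A and 2.88 ± 0.833 CPM in sgKMT2B. It fell by 2.13 in sgKDM6A (SE 0.28, adjusted p = 0.000134), and its log2 change in sgKMT2B was -2.96 (SE 0.29, adjusted p = 1.35e-05). LIPA, the lysosomal lipase that frees cholesterol from its esters, fell by 0.58 in sgKDM5C (adjusted p = 0.00262) and by 0.65 in sgKMT2B (adjusted p = 0.000807). GRAMD1A, which moves cholesterol from the plasma membrane to the endoplasmic reticulum, fell by 0.54 in sgKDM5C (adjusted p = 0.00311) and by 0.59 in sgKDM6A (adjusted p = 0.00125). It was also lower in sgKMT2B, by 0.34 (adjusted p = 0.0278). SOAT1, which esterifies cholesterol for storage, rose by 0.73 in sgKMT2B (adjusted p = 0.000514). RXRA, the partner of LXR, rose by 0.46 in sgKDM6A (adjusted p = 0.00674), a call lost without sgKDM6A replicate 1. It also rose by 0.51 in sgKMT2B (adjusted p = 0.00321).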

How the data were processed

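Poly(A) RNA of 8 HEK293T libraries (4 groups of 2) was sequenced as read pairs, per the labels' protocols. The authors deposited raw read counts per Ensembl gene, made with STAR and HTSeq 0.11.2 on GRCh38, per the submitters' processing notes. No source used here gives the STAR version, the annotation release or the strand setting, so reads of overlapping or antisense genes cannot be told apart. Symbols, coordinates and exon lengths came from GENCODE v29, which held 58542 of the 60617 identifiers.

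Counts were tested with edgeR 4.0.16 (glmQLFit and glmQLFTest, R 4.3.3) on all 8 libraries with 1 coefficient per group and 4 residual degrees of freedom. TMM factors lay between 0.965 and 1.056 and filterByExpr left 17527 genes. P-values were adjusted by the Benjamini-Hochberg method over these genes within each of 6 comparisons, with calls made at adjusted values under 0.05. The script was tested on simulated data. CPM are TMM-scaled, and CPM per kb divide by the union of exons. Replicates differed by more than sampling noise (chi-square per degree of freedom 7.57 to 15.3).

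Members and lists were chosen with earlier results of these data known, so list counts are descriptions. Values per library are given for the regulators, for up to 6 sterol and 4 fatty acid members with the smallest adjusted p among those called in each knockout, and for HMGCS1, SQLE, FASN and ACLY, and those of MVD and ACACA, beyond that rule, were added after their values were seen. From each further list up to 3 called members per knockout are named. Alternatives were other scaling factors, other filters, DESeq2 1.42.0, limma voom 3.58.1, a fit of 2 groups alone, thinning to the shallowest library, a replicate block, and leaving out each library in turn, where the lone library of a group is assumed to vary like the other groups.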

Additional observations from a re-analysis of the deposited data

How the results depend on the processing

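Calls of members rested on 2 libraries a group and thinned out when 1 was left out. Against WT, leaving out 1 library gave 7 to 10 sterol, 2 to 4 fatty acid and 2 to 4 regulator members called in sgKDM5C, beside 1841 to 3877 of all genes. It gave 3 to 7, 3 to 4 and 1 to 3 in sgKDM6A, beside 2495 to 4711 of all genes. It gave 3 to 10, 1 to 3 and 2 to 4 in sgKMT2B, beside 2372 to 4787 of all genes. Between sgKDM5C and sgKDM6A the ranges were 4 to 8, 3 to 4 and 0 to 1 (1878 to 2315 of all genes), between sgKDM5C and sgKMT2B 3 to 3, 3 to 4 and 0 to 1 (2236 to 2583), and between sgKDM6A and sgKMT2B 2 to 4, 2 to 3 and 1 to 1 (2551 to 2900). Members called in every alternative numbered 7 of 10 sterol, 2 of 4 fatty acid and 2 of 4 regulator members in sgKDM5C, 2 of 7, 3 of 5 and 1 of 3 in sgKDM6A, and 3 of 10, 1 of 1 and 2 of 4 in sgKMT2B. The fatty acid members called in sgKMT2B numbered 1 in the main test, 3 with upper-quartile factors, 2 without the filter on low counts and 2 in DESeq2. The regulators called between sgKDM5C and sgKDM6A numbered 1, and 2 without the filter, in DESeq2 and in limma voom. The fatty acid members called between sgKDM6A and sgKMT2B numbered 3, and 5 without the filter. ACACA in sgKMT2B turned from 0.06 to -1.47 without sgKMT2B replicate 2, and stood at 0.78 without replicate 1. For counts that moved, the cause was not tested, beyond the loss of a library where 1 was left out. Other scaling factors moved the median log2 change of all genes by at most 0.048.

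A replicate block raised the count over all genes in each comparison, from 3969 to 4645 in sgKDM5C, 4759 to 5521 in sgKDM6A and 4931 to 5576 in sgKMT2B against WT, and from 3468 to 4110, 3882 to 4415 and 4356 to 4966 between sgKDM5C and sgKDM6A, sgKDM5C and sgKMT2B, and sgKDM6A and sgKMT2B. It ended no call of a member. With the block, MVK (0.0401) and FDFT1 (0.0435) were called in sgKDM6A and FADS1 (0.0235) in sgKMT2B, so that 9 sterol members were called in sgKDM6A and 2 fatty acid members in sgKMT2B. Between sgKDM5C and sgKDM6A it added NSDHL (0.0282), ACACA (0.0271), SREBF1 (0.0424) and INSIG1 (0.00972), giving 3 regulators, and it added ACAT2 (0.0494) between sgKDM5C and sgKMT2B and LSS (0.0329) between sgKDM6A and sgKMT2B, all adjusted p of edgeR. Deviations of same-numbered libraries from their group means correlated across genes at -0.1, -0.043 and 0.02 between WT and sgKDM5C, sgKDM6A and sgKMT2B, and at 0.5, 0.36 and 0.33 between the knockouts. Among the knockouts the numbers therefore moved together in these data, but the labels name no shared batch or day and each group has only 2 libraries, so the pairing was not settled.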

Other observations

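Of 16 genes that use isoprenoids outside sterol synthesis, 1 was lower (6.25%) and 8 were higher (50%) in sgKDM6A, beside 14.6% and 12.6% of all genes tested (median log2 change 0.38). In sgKMT2B 1 was lower and 4 were higher (6.25% and 25% beside 14.5% and 13.7%, median 0.18), and in sgKDM5C 1 was lower and 2 were higher (6.25% and 12.5% beside 11.5% and 11.1%, median -0.03). DOLK, the dolichol kinase, was at 11.5 ± 0.988 CPM in WT (mean ± SD, n = 2), 29.1 ± 10.1 CPM in sgKDM5C, 41.7 ± 8.72 CPM in sgKDM6A and 27.2 ± 2.81 CPM in sgKMT2B, with adjusted p = 0.00116, 6.83e-05 and 0.00113 in edgeR. ZMPSTE24, a protease that trims prenylated proteins, rose by 0.89 in sgKDM6A (adjusted p = 0.00139). It also rose by 0.54 in sgKDM5C (adjusted p = 0.0268) and by 0.49 in sgKMT2B (adjusted p = 0.0355). RABGGTA rose by 0.94 in sgKMT2B (adjusted p = 0.000298) and by 0.56 in sgKDM6A (adjusted p = 0.00939). RABGGTB, the other subunit of the same Rab prenyltransferase, fell by 0.86 in sgKDM6A (adjusted p = 0.00366) and by 0.75 in sgKDM5C (adjusted p = 0.0104). The prenyl diphosphate synthase subunit PDSS2 fell by 0.57 in sgKMT2B (adjusted p = 0.0143, range over the alternatives 0.00318 to 0.134, lost without WT replicate 2 or either sgKMT2B library).

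Of 19 fatty acid oxidation genes tested, 4 were lower and 1 higher in sgKDM5C (21.1% and 5.26% beside 11.5% and 11.1% of all genes, median -0.12), 6 were lower in sgKDM6A (31.6% beside 14.6%, median -0.08), and 8 were lower in sgKMT2B (42.1% beside 14.5%, median -0.25). HADHB and HADHA, the subunits of the mitochondrial trifunctional protein, fell by 0.64 and 0.54 in sgKDM5C (adjusted p = 0.000705 and 0.000792), ACADS by 0.74 in sgKDM6A (adjusted p = 0.00104) and ECHS1 by 0.49 in sgKMT2B (adjusted p = 0.00137). HADHB was also lower in sgKDM6A (-0.29, adjusted p = 0.0421) and sgKMT2B (-0.49, adjusted p = 0.00248). In sgKMT2B, HADHA (-0.32, adjusted p = 0.0119) and ACADS (-0.4, adjusted p = 0.0318) were lower too. Of 24 triglyceride and phospholipid genes, 3 were lower and 3 higher in sgKDM5C (12.5% each, near the 11.5% and 11.1% of all genes, median 0.04) and 5 lower and 4 higher in sgKDM6A (20.8% and 16.7% beside 14.6% and 12.6%, median -0.03). In sgKMT2B 2 were lower and 7 higher (8.33% and 29.2% beside 14.5% and 13.7%, median 0.16). DGAT2, which completes triglycerides, was at 5.57 ± 0.709 CPM in WT, 11.8 ± 1.76 CPM in sgKDM5C, 11.6 ± 1.97 CPM in sgKDM6A and 12.7 ± 0.195 CPM in sgKMT2B (adjusted p = 0.00216, 0.0018 and 0.000696). PLIN2, a lipid droplet coat protein, rose by 0.56 in sgKMT2B (adjusted p = 0.00356) and fell by 0.41 in sgKDM6A (adjusted p = 0.0218). The comparisons share the WT libraries.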
